A study of Mus musculus with 24 samples.

Results

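Alternative 3' splice sites are introns in which 1 donor can be joined to 2 or more acceptors, so that the downstream exon starts earlier or later. The splicing table listed 20940 such events with 45157 acceptors in mouse cells, and 11948 events with 26097 acceptors in 5014 host genes had junction coverage graded SOK, OK or LOW, the 3 highest grades of the first quality score, at each listed site in all 24 libraries. Events were chosen by this coverage and not by how they moved, and they made up 11948 of the 97623 splicing events of all kinds that passed the same rule. Of the 11948 events, 11916 kept all their acceptors and could be ordered from the donor outwards, 10065 of them with 2 acceptors, and 32 kept only some sites. The acceptor nearest the donor, which gives the longest exon, is called proximal here and the farthest is called distal. The measure was distal usage, the percentage of an event's spliced reads that joined the distal acceptor, with acceptors in between counted in proportion to their rank.

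The 3' end of an intron is read in steps. SF1 and then the SF3 complexes with U2 bind the branch point, the U2AF heterodimer binds the polypyrimidine tract and the AG behind it, and in the second catalytic step the spliceosome joins the exon to an AG downstream of the branch point, with Slu7, Prpf18 and Dhx38 among the factors of that step. Where several AGs are within reach, the nearest to the branch point is often favoured, and a shift between them can add or remove a few amino acids, move the reading frame or alter an untranslated region. How fast RNA polymerase II transcribes sets how long an upstream acceptor is in the nascent RNA before a downstream competitor is made.

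The study followed wild-type (WT) mouse embryonic stem cells (ESCs) and ESCs homozygous for Polr2a[R749H], a slowly elongating form of the largest subunit of RNA polymerase II, called slow/slow, through neuronal differentiation. Poly-A RNA was sequenced from 3 replicates of each genotype at 4 stages, which gave 8 groups. Stage 1 was ESCs held in 2i medium with LIF, stage 2 neuronal precursor cells (NPCs) at day 7 of culture without these factors, stage 3 precursors purified by the surface marker PSA-NCAM at day 10 (PSA-NCAM+ cells), and stage 4 neurons grown for 14 days after the day 7 cultures had been replated. Both genotypes were ESC lines, the slow/slow line made by gene targeting, so that genotype and line cannot be told apart, and slow/slow cells were plated more densely at the start of differentiation. The replicates were described as separate differentiation experiments. The mutation is a substitution, so the level of Polr2a does not check the label.

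Library size was 32974432 to 104466886 gene counts and the median number of reads behind an acceptor event 102 to 345 per library. The pluripotency factor Pou5f1 averaged 1760 CPM (counts scaled to the library total) in WT ESCs and 82.8 in WT neurons, and 1780 and 36.7 CPM in slow/slow cells. In neurons, the synaptic genes Snap25 (208 and 60.2 CPM in WT and slow/slow cells) and Syn1 (221 and 60.3 CPM) had lower means in slow/slow cultures. So did the neuronal marker Rbfox3 (36.6 and 19.7 CPM) and the oligodendrocyte lineage gene Olig1 (38.4 and 0.218 CPM). Another neuronal marker, Tubb3, had a higher mean there (928 CPM in WT and 1190 in slow/slow neurons). The 3 oligodendrocyte markers summed to 60.1-79.1 CPM in WT and 6.52-7.52 in slow/slow libraries. The 2 mesoderm markers summed to 73.6-92.7 CPM in WT and 7.71-9.71 in slow/slow neuron libraries, while the 2 mesenchyme markers summed to 20.2-27.8 and 94.3-101 CPM. At NPC stage Nanog stood at 384 CPM in WT and 128 in slow/slow cells, Pou5f1 at 639 and 736 CPM and Pax6 at 4.3 and 40.9 CPM. The part of this different cell make-up in any difference between genotypes below was not tested, and in bulk RNA fewer cells of a type and less RNA per cell cannot be told apart. Replicate 1 of the PSA-NCAM+ cells was the farthest from its group at that stage in both genotypes. Over 1295 events, its use of the first listed acceptor differed from the other replicates' mean by a median of 2.86 points in WT. The median was 3.02 points in slow/slow cells, and the other 22 libraries ran from 1.89 to 2.91 points. In replicate 1 the collagen genes Col1a1 and Col1a2 summed to 442 CPM in WT and 589 in slow/slow PSA-NCAM+ cells. In replicates 2 and 3 they summed to 124-200 and 72.5-92 CPM.

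The sequences at the shifting acceptors show what each choice adds to the mRNA. They were read from GENCODE M21 transcripts of build GRCm38 with an intron of the same length as the event's proximal intron and, except where said, another matching its distal intron. Capitals are the bases present only when the proximal acceptor is used, so that they end in the AG of the distal acceptor. Lower case before them is the end of the upstream exon, and lower case after them the bases that follow in the mRNA. The AG of the proximal acceptor itself is intronic and was not read. Where a segment was long, only its last bases are given. The first set holds events of neurons described further on, chosen to show the range of segment lengths.
Tex2: gcaaagaaggTTGCAGgcccagggcata
Arfgap1: ggcatccaagGTCCAGggagttggcagt
Cask: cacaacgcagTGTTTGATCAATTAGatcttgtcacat
Chd3: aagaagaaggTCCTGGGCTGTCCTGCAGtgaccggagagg
Glyr1: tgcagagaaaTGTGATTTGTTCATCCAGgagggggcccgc
Neo1: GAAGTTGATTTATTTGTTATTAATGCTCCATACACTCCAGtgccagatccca
Mtap4: ATCCCTCCTCACGTGTCACTGCAGattgag
Strn4: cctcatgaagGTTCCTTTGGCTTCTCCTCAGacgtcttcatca
Ogt: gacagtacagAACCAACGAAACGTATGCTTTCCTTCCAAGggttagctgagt
In GRCm38 the extra segments were 6 bases in Tex2 (chr11:106513707-106513712, minus strand), 6 in Arfgap1 (chr2:180980398-180980403, plus strand), 15 in Cask (chrX:13537827-13537841, minus strand), 18 in Chd3 (chr11:69361225-69361242, minus strand) and 18 in Glyr1 (chr16:5021431-5021448, minus strand). They were 48 bases in Neo1 (chr9:58907047-58907094, minus strand), 106 in Mtap4 (chr9:110081735-110081840, plus strand), 21 between the last pair of acceptors of Strn4 (chr7:16831465-16831485, plus strand) and 30 between the first pair of Ogt (chrX:101642976-101643005, plus strand). In the matched transcripts all were coding sequence, except that the Mtap4 segment lay across the boundary of coding and untranslated sequence. In Arfgap1 and Cask only the proximal intron was annotated and the distal AG was found by counting along the exon.

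The second set holds events that moved in NPCs, with 2 events whose acceptors are 3 bases apart, Rev1 and Eif4a2, at the end.
Elf2: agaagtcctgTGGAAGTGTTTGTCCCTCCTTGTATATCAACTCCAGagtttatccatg
Ralgds: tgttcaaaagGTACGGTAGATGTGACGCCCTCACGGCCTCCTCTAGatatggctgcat
Depdc5: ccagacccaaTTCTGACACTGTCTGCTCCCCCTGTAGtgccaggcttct
Rbfox2: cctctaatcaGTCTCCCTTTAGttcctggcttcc
Jkamp: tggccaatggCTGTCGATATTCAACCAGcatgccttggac
Chchd7: TGTTTCCGGATTTAACACTCACAGaccaga
Rev1: ggaaaagcagCAGatataccagatt
Eif4a2: attacaacagCAGagaacatggcgg
The segments were 36 bases in Elf2 (chr3:51265007-51265042, minus strand), 36 in Ralgds (chr2:28542855-28542890, plus strand), 27 between the first pair of acceptors of Depdc5 (chr5:32937521-32937547, plus strand), 12 in Rbfox2 (chr15:77098073-77098084, minus strand) and 18 in Jkamp (chr12:72089315-72089332, plus strand), all coding. In Chchd7 the 45 bases (chr4:3939379-3939423, plus strand) lay in the 5' untranslated region, and the last 24 of them are shown. The 3 bases of Rev1 (chr1:38079396-38079398, minus strand) and of Eif4a2 (chr16:23108585-23108587, plus strand) are CAG, so that the choice adds or removes 3 coding bases. For Rev1, too, only the proximal intron was annotated.

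Most acceptor pairs had a single dominant site, and the share of pairs with a dominant distal site was close in all groups. Of the 10065 events with 2 acceptors, the distal one was the major site in 35.6% in WT ESCs and in 35.6-35.8% in every group. The minor acceptor took at least 5% of the reads in 10.8-11.5% of events per group, and in at least 1 group in 1540 events (15.3%). The distance between the acceptors went with how often both were used. Of 1161 pairs 3 bases apart, the layout known as NAGNAG, 50.5% used the minor site at 5% or more in some group, against 11.1% of 2547 pairs 4-12 bases apart, 10.6% of 3757 pairs 13-60 bases apart and 11.4% of 2085 pairs 61-300 bases apart. Among 1033 NAGNAG pairs matched to GENCODE transcripts, the base before the distal AG went with how much it was used. Median distal usage in WT ESCs was 22.1% for CAG (375 events), 15.7% for TAG (69 events), 1.76% for AAG (341 events) and 0.24% for GAG (248 events), and the medians kept this order in all 8 groups. These shares describe the libraries, which share one set of events, and were not tested.

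Slow/slow cells differed from WT cells at a few acceptor events at every stage, most often in NPCs. An event was called changed when the usage of an acceptor moved by over 10 points with a posterior probability above 0.95, computed from the reads and the spread over the 3 replicates. By this rule 8 of 11948 acceptor events changed in ESCs (0.067%, beside 0.178% of all splicing events), 75 in NPCs (0.628% beside 0.808%), 12 in PSA-NCAM+ cells (0.1% beside 0.236%) and 37 in neurons (0.31% beside 0.682%). Alternative exons were called at 0.748%, 2.55%, 0.821% and 2.59% at the same stages and alternative 5' splice sites at 0.144%, 1.29%, 0.323% and 0.527%. Both directions occurred at every stage: 6 events moved to the distal and 2 to the proximal acceptor in ESCs, 41 and 31 at the NPC stage, 6 and 6 among PSA-NCAM+ cells, and 19 and 13 among neurons. Another 3 events in NPCs and 5 in neurons had no direction. The 3 in NPCs, and 2810403A07Rik and Dgcr6 in neurons, had at least 3 acceptors and a distal usage change below 5 points. Cenpt, Rpl26 and Ube2f in neurons kept only some of their sites and so had no distal usage. The median size of a called change was 13.2, 14.2, 14.5 and 16.5 points at the 4 stages, against 0.26 points over all acceptor events in NPCs. The 3 WT and 3 slow/slow libraries did not overlap in distal usage at all 8, 74 of 75, all 12 and 33 of 37 called events. The 3 neuron events without distal usage were counted as overlapping. Of all ordered acceptor events, 7.24%, 10.8%, 7.33% and 9.12% did not overlap. A second test, limma's moderated test on logit-transformed usage with a false discovery rate (FDR) under 0.05 over all splicing events and the same 10 points, called 3, 74, 18 and 36 acceptor events of the 3875 in the fit, while 0.287%, 2.48%, 1.04% and 2.1% of all splicing sites in the fit passed. Of these events 3, 66, 10 and 31 were also called by the first rule. The limma test was made per acceptor site, and for events with at least 3 acceptors the FDR given is the smallest over the sites tested.

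**Figure D1:**
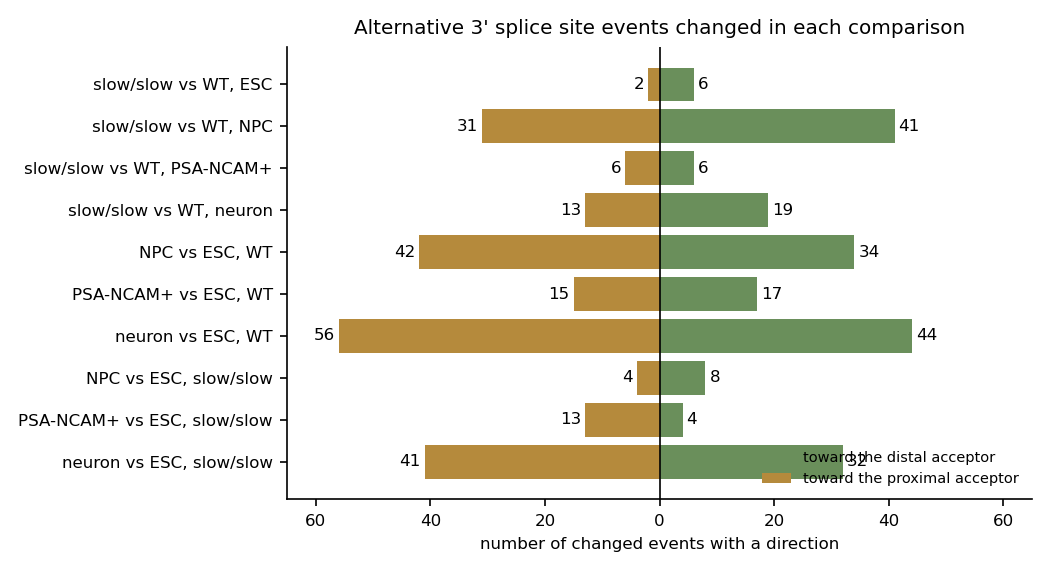
Number of alternative 3' splice site events called changed in each comparison, with bars to the right of the zero line for shifts to the distal acceptor and to the left for shifts to the proximal acceptor. NPCs hold the most genotype differences (41 distal, 31 proximal), and the neuron against ESC comparisons the most stage differences.

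In NPCs, the largest shifts toward the distal acceptor were in Rg9mtd3, whose replicates were uneven, Chchd7, Elf2 and Kif20b, and the largest toward the proximal acceptor in Pdlim5, Epb4.1, Ralgds and Depdc5. These, like the largest genotype shifts named at the other stages, were taken among called events whose genotypes did not overlap in distal usage. Their separation was thus set by the choice of events. Chchd7, which encodes a small mitochondrial protein, has its acceptors 45 bases apart in the 5' untranslated region (donor 3866278, acceptors 3866526 and 3866571, chromosome 4, plus strand, build mm9, as for all event positions here). Distal usage in NPCs was 14.1%, 8.4% and 11.8% in the WT libraries and 41.8%, 46.5% and 39.5% in the slow/slow libraries, a rise of 31.2 points (limma FDR 1.39e-06). Every slow/slow library lay above every WT library, and the slow/slow values were close to the ESC level of 37.7% ± 7 (SD, n = 3), so that the fall between ESCs and NPCs seen in WT cells (20.9 points) had no counterpart called in slow/slow cells (a change of 5.0 points).

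Elf2, an ETS family transcription factor (chromosome 3, minus strand, donor 51070675, acceptors 51068964 and 51068928), used its distal acceptor at 49.6%, 43.5% and 53.3% in WT NPCs and at 79.5%, 72.8% and 75.5% in slow/slow NPCs, a rise of 27.2 points (limma FDR 0.000159). The groups did not overlap, and the distal form lacks the 36 bases printed for it above. Kif20b, a kinesin needed late in cell division, stood at 44.7%, 42.2% and 46.4% in WT and 67.0%, 65.1% and 81.7% in slow/slow NPCs, which is 26.8 points higher (limma FDR 0.00204). Its slow/slow replicate 3 was the highest library, and the groups were separate without it. The 3-base event of Rg9mtd3, from the tRNA methyltransferase 10 family, had the largest called difference of all, 35.1 points, but its libraries fell near 0 or near 50% within single groups. Distal usage was 1.4%, 33.1% and 1.8% in WT and 55.5%, 43.4% and 42.7% in slow/slow NPCs, and 29.3%, 0.0% and 48.6% in WT ESCs. It missed limma's FDR (0.271), and its call was lost without WT NPC replicate 1 or 3 or slow/slow NPC replicate 1.

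Among the proximal shifts in NPCs, Pdlim5, a PDZ and LIM domain protein of the actin cytoskeleton with acceptors 327 bases apart, fell from 47.3%, 55.4% and 60.9% in WT to 25.3%, 30% and 27.5% in slow/slow libraries, by 26.9 points (limma FDR 0.00034). In ESCs the same event stood at 18.2% ± 4.5 and 10.5% ± 4.4 (SD, n = 3 each), so the WT level had risen by 36.3 points and the slow/slow level by 17.1 points by the NPC stage, both called. Ralgds, an exchange factor for Ral GTPases, had distal usage of 46.2%, 49.2% and 47.5% in WT and 20.6%, 23.5% and 24.5% in slow/slow NPCs, a fall of 24.8 points (limma FDR 0.0106). All 3 WT libraries stood above all 3 slow/slow libraries. Depdc5, a subunit of the GATOR1 complex that restrains mTORC1, exchanged its first acceptors: the middle site, 27 bases beyond the proximal one, took 86.1%, 78.4% and 83.8% of the reads in WT and 38.3%, 27.1% and 41.1% in slow/slow NPCs, while the mean share of the proximal site was 16.5% in WT and 64.5% in slow/slow NPCs. As distal usage over its 3 sites this was a fall of 24.4 points (smallest limma FDR of its sites 1.73e-05). Epb4.1, the membrane skeleton protein 4.1R, fell from 64.6%, 58.7% and 57.5% to 38.2%, 38.4% and 26.4%, by 25.9 points, without overlap, but missed the second test (limma FDR 0.096).

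The tandem acceptors 3 bases apart moved mostly one way in NPCs. Of 10 such events called there, 9 moved to the proximal acceptor and 1, Rg9mtd3, to the distal one. In Rev1, a translesion DNA polymerase, distal usage was 41.2%, 46.1% and 43.6% in WT and 26.2%, 23.6% and 19.1% in slow/slow NPCs, a fall of 20.7 points (limma FDR 5.8e-05). The event of Eif4a2, an RNA helicase of translation initiation, rested on at least 414 reads per library (median 825.5) and had small errors: 79.7%, 79.4% and 79.2% in WT against 65.1%, 69.3% and 67.4% in slow/slow NPCs, 12.2 points lower (limma FDR 1.49e-05). Both events were without overlap between genotypes. The other 7 were in Flii (-16.4 points), Dgcr14 (-15.5), Kat2a (-13.4), Tcf3 (-13.3), Pprc1 (-12), Timeless (-10.6) and Tmem132a (-10.3), named here because so few events belong to this class. Rbfox2, a splicing regulator with acceptors 12 bases apart, also fell, from 62.3%, 64.4% and 61.7% in WT to 49.3%, 52.8% and 50.8% in slow/slow NPCs, by 11.8 points (limma FDR 0.0177), again with separate groups.

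**Figure D2:**
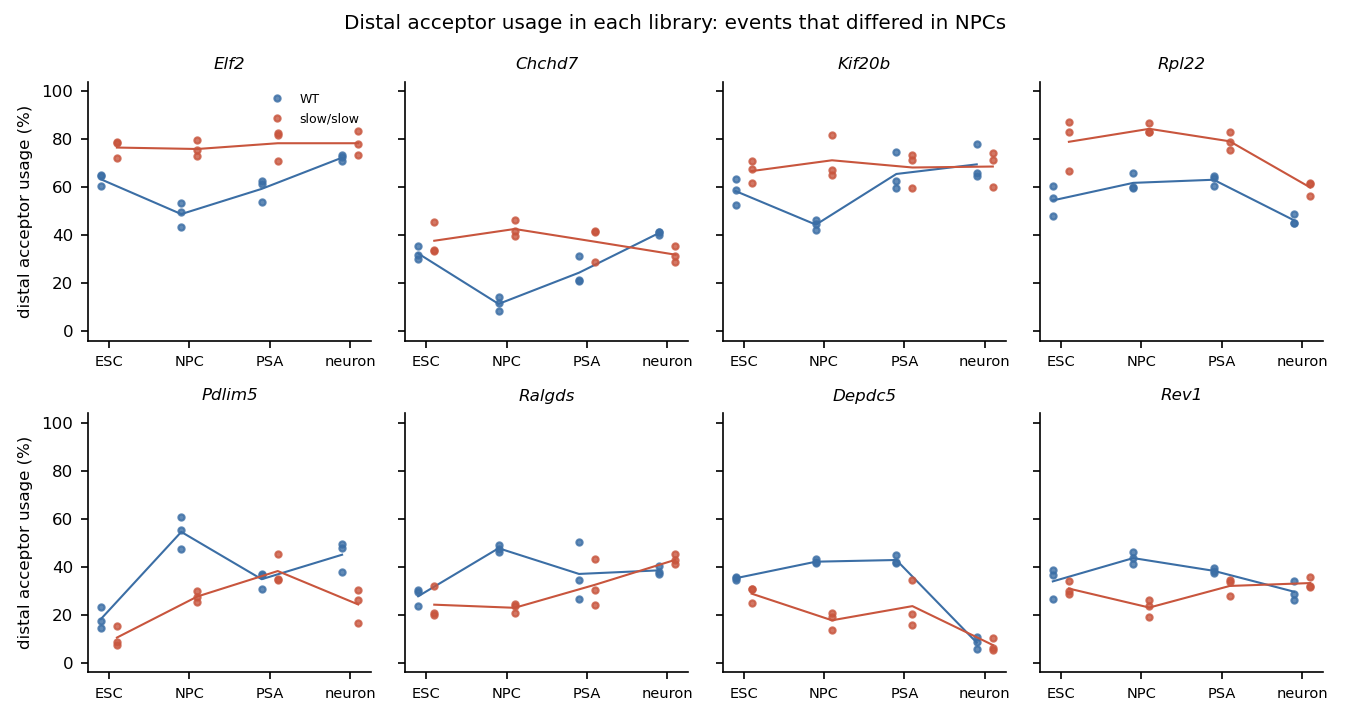
Distal acceptor usage (percent) across the 4 stages for 8 events with large genotype shifts in NPCs, with a point per library, 3 per genotype and stage, and lines through the group means. WT and slow/slow points are separate in NPCs in every event shown, as the choice of events required. Slow/slow lies above WT in the upper row and below it in the lower row, and in Elf2 and Chchd7 it is the WT mean that dips, to 48.8% and 11.4%.

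In ESCs, before differentiation, 8 acceptor events differed. The largest was in Rpl22, a ribosomal protein (chromosome 4, plus strand, donor 151703522, first and last acceptor 151704079 and 151704119), where distal usage over 4 acceptors was 55.3%, 47.9% and 60.4% in WT ESCs and 66.9%, 82.8% and 87.0% in slow/slow ESCs, a rise of 24.4 points (limma FDR 0.00881). The groups did not overlap, and the exchange was between acceptors 34 and 40 bases beyond the proximal one, whose shares were 66.9% and 31.7% in WT and 28.9% and 67.1% in slow/slow cells. Toward the distal acceptor, 1810029B16Rik followed, with 73.8%, 74.5% and 73.9% in WT and 88.1%, 88.9% and 86.9% in slow/slow ESCs (13.9 points, limma FDR 0.00126). Elf2 rose by 13.2 points, and Anapc10, a subunit of the anaphase-promoting complex, by 12.6 points, from 74.9%, 78.7% and 76.3% to 90.7%, 87.0% and 90% (limma FDR 0.0129). 1810029B16Rik and Anapc10 lie on chromosome 8, where host genes as a whole stood higher in slow/slow cells, as described with the host genes. Jkamp, a membrane protein that binds the kinase JNK, rose by 11.9 points (13.5%, 10.0% and 15.3% in WT ESCs, 23.2%, 25.2% and 26.0% in slow/slow ESCs). The proximal shifts were in Dclre1a, a nuclease of DNA cross-link repair (14.8% ± 3.4 in WT and 1.7% ± 1.4 in slow/slow ESCs, n = 3 each), and in the septin Sept8, where the proximal site went from 32.6% ± 2.2 to 47.1% ± 0.98. Jkamp, Elf2, Dclre1a and Sept8 were separate between genotypes but missed limma's FDR (0.071, 0.319, 0.07 and 0.39), and the call of Elf2 was lost without slow/slow ESC replicate 2.

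Of the 113 events called at any stage, 97 were called at a single stage, 14 at 2 stages, Elf2 at 3 and Rpl22 at all 4. Rpl22 distal usage was higher in slow/slow cells by 24.4, 22.6, 16.0 and 13.7 points at the 4 stages in order, with separate groups each time. In PSA-NCAM+ cells its libraries read 60.7%, 64.7% and 63.9% in WT and 75.5%, 83.0% and 78.8% in slow/slow cells, and in neurons 48.7%, 45.1% and 44.9% against 61.9%, 56.4% and 61.4%. Rpl22 has pseudogene copies, so reads may be shared between loci and its values are uncertain. Elf2 moved by 13.2, 27.2 and 19.0 points in ESCs, NPCs and PSA-NCAM+ cells, and in neurons its means were 72.3% ± 1.2 in WT and 78.3% ± 5 in slow/slow cells (n = 3 each), which was not called. Jkamp and Anapc10 were called in ESCs and NPCs, at 11.9 and 12 points and at 12.6 and 18.4 points. The genotype comparisons of different stages share no libraries, but being called is a threshold, and whether a difference changed between stages was tested only by the interaction terms given further on.

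In PSA-NCAM+ cells 12 events changed, and Depdc5, Elf2, Rpl22, Immt and Clint1 were among them as in NPCs. The largest distal shift was in Dhdds, a cis-prenyltransferase of dolichol synthesis, with acceptors 54 bases apart in its 5' untranslated region: 12.1%, 14.1% and 23.1% in WT against 28.2%, 34.5% and 45.2% in slow/slow cells, a rise of 19.5 points (limma FDR 0.00507). Immt, the mitofilin of mitochondrial cristae, rose by 11.7 points (limma FDR 0.0012). On the proximal side, Depdc5 fell by 19.2 points (44.7%, 42.1% and 41.6% in WT, 34.6%, 15.7% and 20.5% in slow/slow cells, limma FDR 7.64e-05). Its slow/slow replicate 1 was nearest to WT, and the groups did not overlap. Zmym3, a zinc finger protein of chromatin complexes, fell by 17.3 points from 48.6%, 51.5% and 49.0% to 35.4%, 36.5% and 25.3% (limma FDR 0.0481). Hif1a, the oxygen-regulated transcription factor, fell by 11.2 points from 44.2%, 41.5% and 39.9% to 36.4%, 26.9% and 28.6% (limma FDR 0.000882), and Scaf4, which binds the C-terminal domain of RNA polymerase II, by 11.9 points from 57.3%, 49.9% and 56.9% to 41.1%, 43.9% and 43.5% (limma FDR 0.0264). Clasrp (-13.0 points, 0.0% in all 3 slow/slow libraries, limma FDR 0.189) and Fam176b (10.4 points, limma FDR 0.0569) missed the second test. Clasrp libraries were at 0 or well above it within single groups, with 7.1%, 23.2% and 8.6% in WT PSA-NCAM+ cells, 0.0%, 0.0% and 19.4% in WT ESCs and 0.0%, 31.2% and 19.1% in slow/slow ESCs.

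Same-numbered PSA-NCAM+ samples of both genotypes shared deviations from their group means. Because replicate 1 stood apart in both genotypes, this does not show that replicates 2 and 3 were paired. In a limma fit that blocked on the replicate number, 21 events were called there in place of 18. In that fit Scaf4 was lost (limma FDR 0.0503) and Clasrp passed (limma FDR 0.0296). Without both replicates 1, 38 events were called, and leaving out slow/slow replicate 1, WT replicate 1 or WT replicate 2 gave 34, 22 and 24; the calls of Fam176b, Clasrp, Scaf4 and Hif1a were each lost without some library (WT replicate 2 or 3 or slow/slow replicate 3, WT replicate 2, WT replicate 1 or 3, and slow/slow replicate 2).

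In neurons 37 events changed. In 8 of the 10 events named here, the 5 largest shifts without overlap in each direction, the slow/slow mean lay between those of WT neurons and WT ESCs. The WT neuron values entered both the choice of these events and this reading, and the share among all 37 is not given. Mtap4, a microtubule-associated protein (chromosome 9, plus strand, donor 109984114, acceptors 109984239 and 109984345, at least 347 reads in every library), used its distal acceptor at 70.6%, 68.8% and 64.0% in WT and 38.2%, 40.2% and 35.1% in slow/slow neurons, 30 points lower (limma FDR 4.9e-10). At every earlier stage its group means were 25.2-33.1% in both genotypes, and the slow/slow neurons were the closer to these. Tex2, a lipid-binding protein of the endoplasmic reticulum whose acceptors are 6 bases apart, went from 0.3% ± 0.29 in WT ESCs and 2.0% ± 1 in slow/slow ESCs (n = 3 each) to 82.2%, 82.0% and 81.5% in WT and 55.5%, 56.1% and 53.9% in slow/slow neurons, a genotype difference of 26.8 points (limma FDR 1.12e-07). Arfgap1, the GTPase-activating protein of Arf1 at the Golgi, also has acceptors 6 bases apart: at most 2.6% in any WT library before the neuron stage, 74.3%, 69.2% and 61.6% in WT neurons and 48.3%, 44.9% and 49.4% in slow/slow neurons (20.8 points lower, limma FDR 0.000779). In all 3 genes every WT neuron library lay above every slow/slow neuron library, as the choice of events required.

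The distal shifts in neurons had the same layout with the direction turned round. Kif1b, a kinesin of axonal transport (chromosome 4, minus strand, donor 148636245, acceptors 148632190 and 148632112), used its distal acceptor at 95.9% ± 3.5 in WT ESCs, at 25.2%, 30.1% and 29.4% in WT neurons and at 48.6%, 47.4% and 50.8% in slow/slow neurons, a rise of 20.7 points (limma FDR 2.87e-05). Neo1, the neogenin receptor for netrins and repulsive guidance molecules, was called at 2 separate introns. At the event whose acceptors are 48 bases apart, distal usage was 96.3% ± 0.67 in WT ESCs, 28.5%, 37.5% and 36% in WT neurons and 54.7%, 57.6% and 61.6% in slow/slow neurons, 23.9 points higher (limma FDR 2.83e-06). At the second, with 3 acceptors within 60 bases, it was 80.9%, 73.3% and 76.0% in WT and 56.4%, 62.5% and 60% in slow/slow neurons, 17.1 points lower (limma FDR 0.000312), against 30.1% ± 4.6 in WT ESCs. Chd3, an ATP-dependent remodeller of the NuRD complex, stood at 69.0% ± 6.9 in WT ESCs, at 5.7%, 9.3% and 9.1% in WT neurons and at 28.3%, 21.1% and 32.3% in slow/slow neurons, a rise of 19.2 points (limma FDR 2.43e-06). In each of these events the 2 genotypes were separate, as the choice of events required, and slow/slow neurons were nearer to the ESC level.

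Cdk12 and Patz1 did not have that layout. Cdk12, a kinase of the RNA polymerase II C-terminal domain, had 59.8% ± 2.8 in WT ESCs, 53.5%, 51.0% and 50.9% in WT neurons and 64.9%, 72.5% and 74.5% in slow/slow neurons, a rise of 18.8 points (limma FDR 0.000525), so that slow/slow neurons lay above both. Patz1, a zinc finger transcription factor, rose by 17.7 points from 75.5%, 81.0% and 72.9% to 97.3%, 96.4% and 88.9% (limma FDR 0.00471), but its call was lost without slow/slow neuron replicate 1 or 2. Glyr1, a nucleosome-binding protein, fell by 18.6 points in neurons (64.8%, 57.1% and 58.4% in WT, 40.5%, 44.3% and 39.8% in slow/slow, limma FDR 0.000687) after rising by 17.1 points in NPCs (26.5%, 29.5% and 21.0% in WT, 42.7%, 37.7% and 47.8% in slow/slow, limma FDR 0.00506). Both of its shifts were without overlap, and the slow/slow means stayed within 41.0-42.8% at all 4 stages while the WT means ran from 25.7% to 60.1%.

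**Figure D3:**
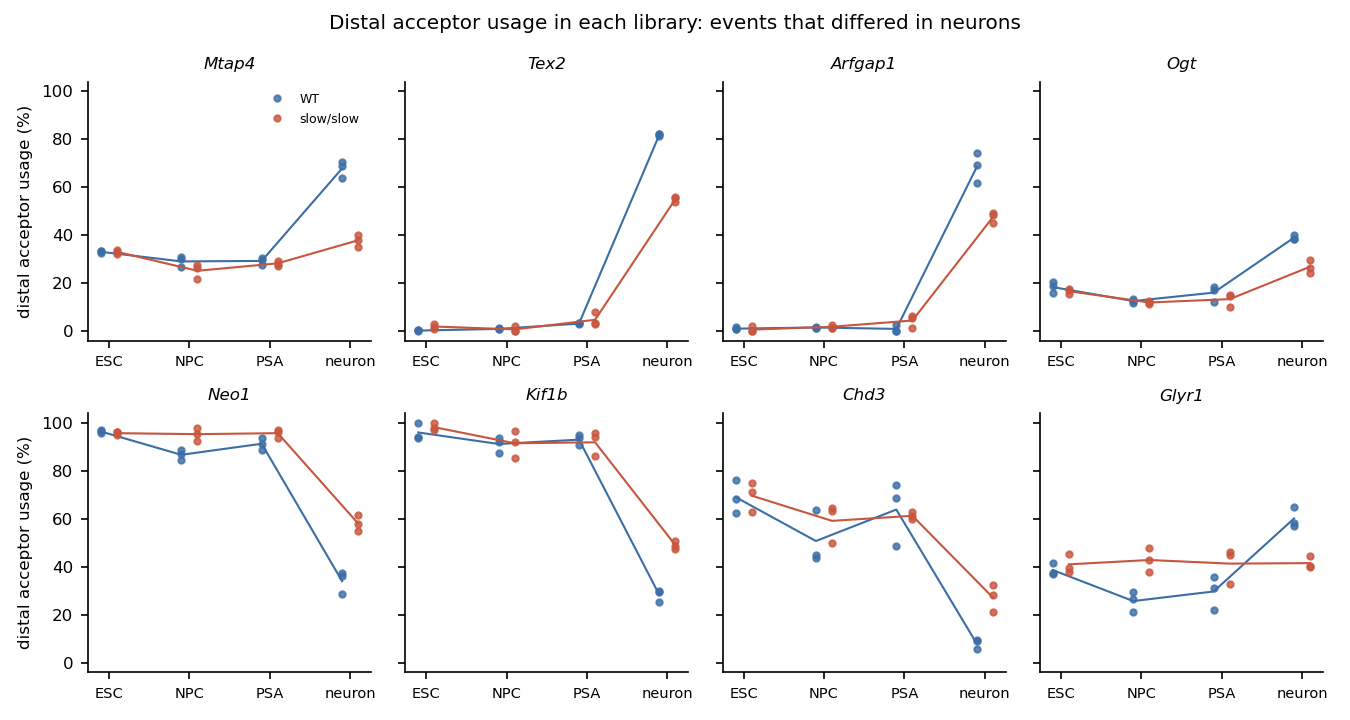
Distal acceptor usage (percent) across the 4 stages for events with large genotype shifts in neurons, with a point per library, 3 per genotype and stage, and lines through the group means. WT neurons lie away from the earlier stages in Mtap4, Tex2, Arfgap1 and Ogt (upward) and in Neo1, Kif1b and Chd3 (downward), and the slow/slow neurons lie nearer to those stages, at 37.9% in Mtap4.

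Acceptor choice moved with differentiation in both genotypes, mostly between ESCs and neurons. In WT cells 81 events changed between ESCs and NPCs (0.678%, beside 0.711% of all splicing events), 32 between ESCs and PSA-NCAM+ cells (0.268% beside 0.497%) and 105 between ESCs and neurons (0.879% beside 1.64%). In slow/slow cells the counts were 13 (0.109% beside 0.225%), 17 (0.142% beside 0.591%) and 76 (0.636% beside 1.19%). The difference between these counts was not tested as such. By direction, 34 events moved to the distal and 42 to the proximal acceptor in WT NPCs, 44 and 56 in WT neurons, 8 and 4 in slow/slow NPCs and 32 and 41 in slow/slow neurons. Tex2 had the largest change, 81.6 points in WT cells (limma FDR 3.49e-12) and 53.1 in slow/slow cells. Ncam1, the neural cell adhesion molecule, had acceptors 3 bases apart (chromosome 9, minus strand, donor 49351116, acceptors 49331754 and 49331751) that moved by a similar amount in both genotypes: 3.8%, 0.0% and 11.3% in WT ESCs and 78.0%, 76.9% and 77.7% in WT neurons (72.5 points, limma FDR 1.36e-06), with 78.5%, 76.6% and 75.1% in slow/slow neurons (72.8 points, limma FDR 3.04e-07).

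Cask, a scaffold of the presynapse, was listed at 0.0% in all 6 ESC libraries and read 72.3%, 69.3% and 73.3% in WT and 58.8%, 69.6% and 63.2% in slow/slow neurons. The genotypes overlapped in neurons for Cask and Ncam1, and neither genotype difference was called (limma FDR 0.125 and 0.89). Toward the proximal acceptor, Kif1b moved by -67.7 points in WT and -49.2 in slow/slow cells, Epb4.1 by -65 and -41.5, Neo1 by -62.2 and -37.6, and Chd3 by -60.9 and -42.4. Tradd, the adaptor of tumour necrosis factor receptor 1, moved by -56.4 points in WT and -45.9 in slow/slow cells. WT and slow/slow ESCs each serve as reference for 3 stage comparisons, so the counts of one genotype share libraries.

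Whether the genotype difference itself changed between ESCs and a later stage was tested by an interaction term in limma, on the logit scale. For NPCs 5 of 3875 acceptor events passed (391 had an unadjusted p under 0.05, and 0.255% of all splicing sites tested passed), and for neurons 8 (378, and 0.5%). In NPCs these were Chchd7 (a difference of 25.9 points, FDR 0.00313), Psip1, a chromatin reader (15.3 points at its sixth acceptor, FDR 0.005), Top2a, the topoisomerase of dividing cells (-13.4 points, FDR 0.0257), Eif4a2 (-10.3 points, FDR 0.0276) and Rnf44 (-13.4 points at its first acceptor, FDR 0.0213), all by limma's test. Psip1 had 7 acceptors, and the sixth took 19.4%, 18.3% and 16.2% in WT and 38%, 35.7% and 39.5% in slow/slow NPCs beside 33.9% ± 1.7 and 38.4% ± 4.3 in ESCs. Top2a distal usage, in the 3' untranslated region, was 25.3%, 27.6% and 25.9% in WT and 12.7%, 12.6% and 13.9% in slow/slow NPCs, beside 14.3% ± 1.7 and 14.5% ± 0.41 in ESCs (n = 3 each). In both genes the WT NPC libraries, and not the slow/slow ones, lay outside the range of the ESC libraries.

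In neurons the interaction passed for Mtap4 (-30 points, limma FDR 2.08e-06), Gpc2 (18.7 points at the third acceptor, limma FDR 0.00215), Tex2 (-28.5 points, limma FDR 0.00377), Strn4 (-16.3 points at its second acceptor, limma FDR 0.00659), Ogt (-22.5 points at its second acceptor, limma FDR 0.0173), Dgcr6, Naa10 and Tbc1d23. Gpc2, a heparan sulphate proteoglycan of developing neurons, was called changed by genotype neither in ESCs (limma FDR 0.411) nor in neurons, where the difference was 3.5 points (limma FDR 7.47e-07). Its distal usage was 39.3%, 51.5% and 40.5% in WT and 24.5%, 26.8% and 36% in slow/slow ESCs, against 2.6%, 2.6% and 2.4% and 5.9%, 5.8% and 6.4% in neurons. Strn4, a striatin of phosphatase complexes, used its middle acceptor at 74.8%, 72.6% and 71.9% in WT and 51.9%, 54.9% and 53.8% in slow/slow neurons, and at 29.5% ± 3.7 and 26.1% ± 1.8 in ESCs. Ogt, the O-GlcNAc transferase, used its middle acceptor at 77.2%, 75.2% and 75.2% in WT and 48.2%, 49.9% and 55.8% in slow/slow neurons, against 34.4% ± 5.1 and 32.3% ± 2.2 in ESCs. In Strn4 and Ogt the neuron genotypes were separate and the ESC genotypes overlapped. For Arfgap1 (limma FDR 0.64), Kif1b (0.935), Chd3 (0.167) and Neo1 (0.107) the interaction did not pass. In the fit blocked on replicate number the interaction passed for 22 events in NPCs and 23 in neurons, and the calls of Top2a and Eif4a2 were lost without 9 and 11 of the 12 libraries in turn, and that of Tex2 without slow/slow ESC replicate 2.

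The direction of the genotype shift in NPCs went with the distance between the acceptors. Among called pairs, 1 of 10 events 3 bases apart and 0 of 7 events 4-12 bases apart moved to the distal site, against 13 of 18 events 13-60 bases apart and 10 of 13 events 61-300 bases apart. The 1 called event over 300 bases apart, Pdlim5, moved to the proximal site. Up to 300 bases, the direction also went with distance as an average over pairs that both sites served in ESCs (minor site at least 5% over the 6 ESC libraries). Over 522 pairs 3 bases apart, mean distal usage was 36.1%, 35.9% and 36.4% in WT and 35.0%, 34.7% and 34.4% in slow/slow NPC libraries, while in ESCs it was 34.2-34.5% and 34.3-34.8%. Over 124 pairs 61-300 bases apart it was 43.4%, 43.3% and 43.8% in WT and 45.7%, 45.3% and 44.7% in slow/slow NPCs. In neurons the 3-base pairs went the other way, with 34.0%, 34.5% and 34.3% in WT and 35.4%, 35.7% and 35.7% in slow/slow libraries, although no single 3-base pair was called there. The libraries did not overlap in these 3 contrasts, and the shifts, 2 points or less, were small beside those of the called events. Of the 522 pairs, 193 had a higher and 329 a lower mean in slow/slow NPCs (median -1.01 points) and 322 a higher and 200 a lower one in slow/slow neurons (median 0.83 points). Between WT ESCs and WT NPCs, 13 pairs 3 bases apart were called and all 13 moved to the distal acceptor. That comparison shares its WT NPC libraries with the genotype comparison in NPCs, so the 2 directions are not independent. Pairs of one class share libraries and sequence layout, so these are descriptions with no test, and the part of depth and cell make-up was not tested.

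**Figure D4:**
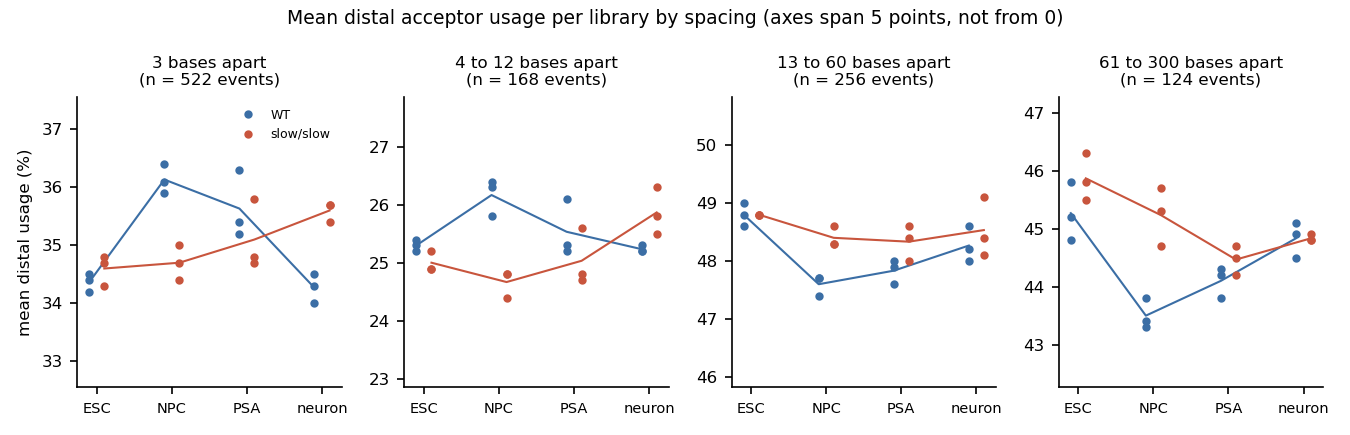
Mean distal acceptor usage (percent) per library over acceptor pairs grouped by the distance between their acceptors in bases, with a point for each of the 24 libraries and lines through the group means. Each axis spans 5 points and does not start at 0. In pairs 3 bases apart, WT NPC libraries (35.9-36.4%) lie above slow/slow NPC libraries (34.4-35.0%), and in neurons the order is turned round.

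The host genes of the changed events were spread over many functions. The 5 lists of genes considered were chosen for these cells and for acceptor choice. Of 357 acceptor events in 100 genes of chromatin and transcription, 3 changed in NPCs and 5 in neurons (0.84% and 1.4%, beside 0.628% and 0.31% of all acceptor events), in Brd9, Cdk12, Chd3, Chd4, Kat2a, Kdm2b and Ogt. In Brd9, a bromodomain subunit of a BAF-type remodelling complex, distal usage was 19.0%, 21.2% and 22.7% in WT and 32.6%, 33.8% and 32.3% in slow/slow neurons, 11.9 points higher (limma FDR 0.000127), with separate groups. Of 96 events in 28 synaptic and neuronal genes, 2 changed in neurons (2.08%, Kif1b and Mtap4), and of 181 events in 62 genes of cytoskeleton and trafficking, 1 (Arfgap1). Of 192 events in 75 genes of splicing and RNA binding, 1 changed in NPCs (Rbfox2). Of 70 events in 22 genes of acceptor recognition, 1 changed in neurons: in Rbm39, a U2AF-related splicing factor, the most distal acceptor took 59.0%, 54.8% and 59.4% in WT and 47.2%, 49.1% and 45.1% in slow/slow neurons, but the call was lost without WT neuron replicate 1 or 3 or slow/slow neuron replicate 3. No list was tested against the rest, and with 1 to 5 called events at a stage these counts are descriptions.

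Host genes of shifting acceptors differed in expression about as often as genes in general. By edgeR's quasi-likelihood test with FDR under 0.05, the host gene's expression differed between genotypes for 4 of 8 hosts in ESCs (50%, beside 40.4% of all 16627 genes tested), 39 of 75 in NPCs (52% beside 56.7%), 4 of 12 in PSA-NCAM+ cells (33.3% beside 56.7%) and 17 of 36 in neurons (47.2% beside 51.9%). Chchd7, Elf2, Kif20b, Pdlim5, Depdc5 and Rev1 in NPCs had log2 differences of 0.21, -0.07, -0.01, 0.03, -0.12 and 0.17, none past edgeR's threshold, and Rpl22 had 0.13 in ESCs, -0.19 in NPCs and 0.22 in PSA-NCAM+ cells, also short of it. In neurons, where its event was called too, Rpl22 was higher in slow/slow cells by 0.73 (edgeR FDR 1.22e-05). Mtap4 and Arfgap1 in neurons likewise had 0.10 and -0.24 (edgeR FDR 0.571 and 0.212). Ralgds in NPCs was lower by edgeR's test (log2 -0.92, FDR 0.00129), and so was Eif4a2 (-1.32, FDR 4.97e-05). In slow/slow neurons Tex2 (-0.86), Kif1b (-0.64), Neo1 (-0.64), Chd3 (-0.86) and Cdk12 (-0.75) were lower, all with an edgeR FDR of at most 0.000801. Chromosome 8 stood apart at every stage: over 321 host genes there the median log2 difference between slow/slow and WT cells was 0.56, 0.59, 0.58 and 0.40, against 0.05, 0.06, 0.06 and -0.10 over 4656 host genes elsewhere. 1810029B16Rik was higher by 1.09 in ESCs and Anapc10 by 0.45 (edgeR FDR 1.33e-07 and 6.03e-05).

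Of the factors that recognise acceptors, those that changed in slow/slow NPCs rose with 1 exception, Zrsr1, while the other 15 did not pass the test. Of 29 tested genes of this list of 31, 13 rose and 1 fell in NPCs by edgeR's test (48.3% changed, beside 56.7% of all genes, 29.3% rising and 27.4% falling), 9 rose and 2 fell among PSA-NCAM+ cells (beside 28.6% and 28.1%), 5 rose and 2 fell in ESCs (beside 18.5% and 21.9%) and 2 rose and 5 fell in neurons (beside 23.4% and 28.4%). The list's median log2 difference was 0.13, 0.23, 0.17 and 0.03 from ESCs to neurons, against -0.02, 0.01, -0.01 and -0.06 over all genes. In NPCs U2af2, the large subunit of U2AF, rose by 0.66 ± 0.15 (log2, SE; edgeR FDR 0.000854), the SF3b subunits Sf3b3 and Sf3b4 by 0.82 ± 0.17 and 0.75 ± 0.15 (edgeR FDR 0.000359 and 0.000254), and the helicase Dhx15 by 0.69 ± 0.11 (edgeR FDR 3.75e-05). Dhx38, the helicase before the second step, rose at all 4 stages by 0.78, 0.90, 0.63 and 0.65, but Dhx38, Sf3b3 and Sugp1 lie on chromosome 8. In neurons Ddx46, the helicase at the branch point, fell by 0.52 on the log2 scale (edgeR FDR 0.00184) and Sf3b1 by 0.23 (edgeR FDR 0.0294). Zrsr1 fell by 0.85 in NPCs and 1.09 in neurons on the log2 scale (edgeR FDR 0.0442 and 0.0123), and Puf60 by 0.48 in ESCs (edgeR FDR 0.00111). With only the 6 libraries of a stage in the fit, the number changed went from 7 to 17 in ESCs, 11 to 1 in PSA-NCAM+ cells and 7 to 22 in neurons, without slow/slow PSA-NCAM+ replicate 1 it was 18, and without slow/slow neuron replicate 2 it was 4.

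**Figure D5:**
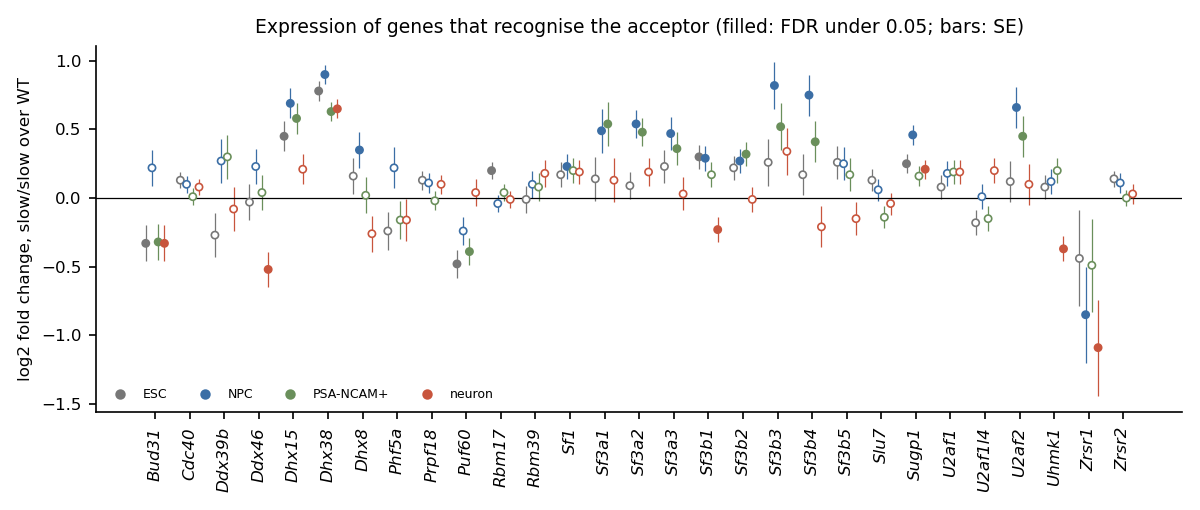
Log2 fold change of slow/slow over WT for genes of acceptor recognition, from edgeR, with 1 colour per stage, bars for the SE and filled points where the FDR was under 0.05. The points lie mostly above 0 in NPCs (13 genes higher, 1 lower) and around 0 in neurons (2 higher, 5 lower).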

How the data were processed

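Poly-A RNA from 24 samples (8 groups of 3) was sequenced by the authors from stranded libraries, with bcl2fastq 2.17.1.14 and edgeR among the tools named in the submitters' processing notes and mm9 as the build. The deposited gene table holds raw read counts per gene for each sample. The deposited splicing table, made by the authors with vast-tools, version 1, from paired reads of 75 bases mapped to mm9, holds for each acceptor the percent of spliced reads that used it in each sample, with a quality text giving the read numbers behind it. The authors' own comparisons (group means, fold changes, FDR values and group-level splicing estimates) and their RPKM means were not used, and 0 per-sample columns were left out. How strand was treated in counting is not given in the sources used here.

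From these, sites graded SOK, OK or LOW in all 24 samples were joined by event and ordered by their distance from the donor. Distal usage was the sum over sites of percent usage weighted by rank, from 0 at the proximal to 1 at the distal acceptor. A site was called when its usage moved by over 10 points with a posterior probability over 0.95 from beta posteriors of the reads of each replicate, pooled within a group and refitted as 1 beta distribution. Events with at least 3 sites and a change in distal usage under 5 points were given no direction. The second test was limma 3.58.1 on logit usage with 0.5 reads added, over the 31375 sites of all splicing events between 1% and 99% pooled usage. Host gene counts were tested with edgeR 4.0.16 (quasi-likelihood, TMM, filterByExpr, 24 samples in 1 model, R 4.3.3), all p-values adjusted by Benjamini-Hochberg over the whole table. Other work used Python 3.11.15, pandas 2.3.3, NumPy 2.4.6 and SciPy 1.17.1. The code was tested on simulated data.

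Named events were the 5 largest called shifts in each direction at each stage among those without overlap between genotypes, the 4 (WT) and 2 (slow/slow) largest for neurons against ESCs, the 2 largest interactions in each direction, events called at all 4 stages and up to 4 called events per gene list; others are named where said. The members and the gene lists were chosen with earlier results of these data known. Same-numbered samples of both genotypes were checked for shared deviations over 1295 events. The correlations averaged 0.004 in ESCs, -0.0175 in NPCs and 0.0046 in neurons. The PSA-NCAM+ values, from replicate 1 to replicate 3, were 0.2977, 0.1867 and 0.1162. Replicate 1 lay farthest from its group at that stage in both genotypes. Since deviations were taken from group means, this alone can align the other replicates. The check therefore cannot show that the numbers pair the samples there. The alternatives were a threshold of 15 points for calls and interactions, a probability of 0.99, OK or SOK coverage only, coverage in the 6 samples compared, limma without and with the replicate block, 1 added read, DESeq2 size factors in edgeR, no count filter, DESeq2 1.42.0, fits of 6 samples and leaving out each replicate. The third quality score in place of the first, and leaving out both replicates 1 of PSA-NCAM+ cells, were chosen after seeing the data. Exon sequences were matched to GENCODE M21 transcripts (GRCm38) by host gene and exact intron length, which placed 1668 of 10065 pairs with both introns and 5365 with the proximal intron only. Intronic sequence of mm9 was not used here. Gene positions come from GRCm38 and cover host genes of acceptor events.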

Additional observations from a re-analysis of the deposited data

Results flagged for a closer look

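The genotype difference in acceptor use was not the same at the stage given as in ESCs for the following events, by limma's interaction test (FDR under 0.05). In NPCs the difference between differences was 25.9 points in Chchd7, whose distal usage was 32.4% in WT ESCs and 37.7% in slow/slow ESCs, then 11.4% and 42.6% in NPCs. It was 15.3 points at the sixth acceptor of Psip1 (33.9% and 38.4% in ESCs, 18% and 37.7% in NPCs), -13.4 points in Top2a (14.3% and 14.5%, then 26.3% and 13.1%), -10.3 points in Eif4a2 (70.3% and 68.4%, then 79.4% and 67.3%) and -13.4 points at the first acceptor of Rnf44 (15.6% and 18.1%, then 26.8% and 15.9%).

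In neurons it was -30 points in Mtap4 and -28.5 points in Tex2. It was -22.5 points at the second acceptor of Ogt, 18.7 points at the third of Gpc2 (43.8% and 28.6% in ESCs, 2.5% and 6.0% in neurons) and -16.3 points at the second of Strn4. Among events not described above, it was -17.1 points at the third acceptor of Naa10 (30.9% and 31.0% in ESCs, 51.8% and 34.8% in neurons), -15.9 points at the fifth of Dgcr6 (72.2% and 78.3%, then 75.5% and 65.7%) and -11.2 points at the third of Tbc1d23 (1.4% and 8.5%, then 7.3% and 3.2%).

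Among events called by genotype in both NPCs and neurons, those of 3 genes turned round between the stages. In these, every slow/slow library lay to one side of every WT library in NPCs and to the other side in neurons. Some events called in NPCs but not in neurons, such as those of Top2a and Chchd7, had the same layout. Glyr1 differed by 17.1 points in NPCs and -18.6 in neurons, Banp by -10.8 and 6.6 points, and Cic by -5.8 and 5.9 points. The difference between NPCs and neurons was not tested for any of these events.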

How the results depend on the processing

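No call of a named event turned direction under any alternative. Among the results for named events, 326 kept the call and 44 lost it under alternatives other than a left-out replicate, and 377 kept it and 37 lost it with a replicate left out. For host gene expression 242 and 301 kept their side of the threshold, 2 and 6 fell short of it and 16 and 5 newly passed it. Counts of changed events moved by over 1.5 times as follows, and the cause was not tested. With 15 points the genotype counts were 1, 34, 6 and 19 from ESCs to neurons, the WT stage counts 38 (NPCs), 17 (PSA-NCAM+ cells) and 69 (neurons), the slow/slow ones 5, 11 and 46, and the NPC interaction 2. With a probability of 0.99 they were 2, 46, 4 and 23 by genotype, 41 and 5 in WT NPCs and PSA-NCAM+ cells, and 3, 6 and 48 in slow/slow cells. With OK or SOK coverage only, 7 events changed by genotype in PSA-NCAM+ cells, 64 between WT neurons and ESCs, and 5 passed the neuron interaction. With coverage asked only of the 6 samples compared, which tests more events, 56 changed in neurons. By limma without the block 3 events changed in ESCs and 2 between slow/slow NPCs and ESCs. With the replicate number as a block, limma gave 4 in ESCs, 21 among PSA-NCAM+ cells, 2 between slow/slow NPCs and ESCs, and 22 and 23 for the NPC and neuron interactions, and edgeR changed 13 acceptor recognition genes in ESCs; the block moved no other count by over 1.5 times. Outside PSA-NCAM+ cells same-numbered samples showed little shared deviation. Without both replicates 1 of PSA-NCAM+ cells, 38 events changed there. With only the 6 samples of a stage in the edgeR fit, 17, 1 and 22 acceptor recognition genes changed in ESCs, PSA-NCAM+ cells and neurons, and 2 and 29 host genes in PSA-NCAM+ cells and neurons.

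Leaving out a replicate gave 10-16, 77-90, 14-34 and 36-52 genotype events from ESCs to neurons. With 2 replicates in an arm the spread over replicates is estimated from fewer libraries. The ranges were 85-93, 32-49 and 106-124 for the 3 WT stage comparisons (49 without WT PSA-NCAM+ replicate 3) and 12-18, 21-28 and 82-92 for the slow/slow ones. They were 2-5 for the NPC and 4-9 for the neuron interaction. In ESCs the counts above 1.5 times the full one came without WT replicate 1 (13), slow/slow replicate 1 (16) or slow/slow replicate 2 (15). Changed genes of the acceptor list numbered 6-8, 11-13, 9-18 and 4-6 at the 4 stages, and changed host genes 4-4, 33-36, 4-7 and 16-17, with 7 without WT PSA-NCAM+ replicate 1. Read depth limits small shifts: the shallowest library held 20 reads for Dclre1a, 21 for Rpl22, Chd3 and Patz1, and 23 for Kif1b, Pdlim5, Epb4.1 and Ncam1, so single-library values of these events are coarse.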
